A study of Mus musculus with 3 samples.

Results

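The alpha and beta tubulins described here are 10 mouse genes, Tuba1a, Tuba1b, Tuba1c, Tuba3a and Tuba4a for alpha tubulin and Tubb2a, Tubb2b, Tubb2c (now Tubb4b), Tubb5 and Tubb6 for beta tubulin. All 17 probes that carry one of these names on the array were taken, of 41174 probes and 27597 gene names in all. The family was selected on the log2 ratios between media measured on these same arrays, so its ratios are given as a description. The established mouse macrophage line J774A.1 had been incubated for 6 h in RPMI medium containing 10% fetal bovine serum (RPMI), in Earle's Balanced Salt Solution (EBSS), or in EBSS to which SB202190, which blocks p38 MAP kinases, was added at 10 µM. Each of 3 two-colour arrays held a different pair of these conditions, so that every condition was read on 2 arrays, once in Cy5 and once in Cy3. Each condition is 1 sample, and no p-value can be given. All 3 conditions share the cell line, for which no other strain, allele or clone is named.

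Alpha and beta tubulin join into dimers, and these dimers polymerise into microtubules, the tracks along which macrophages move phagosomes and lysosomes. Several genes encode each of the chains, and the products, called isotypes, differ mostly near their tails. Cells also adjust tubulin mRNA to the amount of free dimer: when free tubulin is in excess, the factor TTC5 recognises the first residues of a tubulin chain as it leaves the ribosome, and the mRNA being translated is degraded with the help of the adaptor SCAPER and the CCR4-NOT deadenylase.

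RefSeq promoter windows, from 250 bases before to 50 after the annotated start (GRCm38.p6), were read for 8 of the 10 genes. No window was read for Tubb2b or Tubb6, so the counts of matches below leave these genes out. Shown are the beta gene with the lowest ratio in EBSS (Tubb2c, chr2:25224653-25224952, minus strand) and a beta gene with a pair of bright probes (Tubb5, chr17:35838252-35838551, minus strand). Also shown are the broadly used alpha gene Tuba1b (chr15:98934341-98934640, minus strand) and Tuba1c (chr15:99029641-99029940, plus strand), an alpha gene without a settled direction with SB202190 against EBSS. Capitals mark matches, on either strand, to the TATA box (letters TATAAA), to the CCAAT box, to the GC box (letters GGGCGG), to the cyclic AMP response element (letters TGACGTCA) or to the amino acid response element (letters TGATGNAA). No matches to different motifs overlapped.
Tubb2c: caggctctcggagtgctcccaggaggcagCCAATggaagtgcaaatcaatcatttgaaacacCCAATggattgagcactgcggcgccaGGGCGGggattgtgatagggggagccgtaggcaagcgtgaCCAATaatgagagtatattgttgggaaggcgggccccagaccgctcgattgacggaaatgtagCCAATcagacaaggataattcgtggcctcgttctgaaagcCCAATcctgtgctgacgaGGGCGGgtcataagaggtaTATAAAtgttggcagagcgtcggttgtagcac
Tubb5: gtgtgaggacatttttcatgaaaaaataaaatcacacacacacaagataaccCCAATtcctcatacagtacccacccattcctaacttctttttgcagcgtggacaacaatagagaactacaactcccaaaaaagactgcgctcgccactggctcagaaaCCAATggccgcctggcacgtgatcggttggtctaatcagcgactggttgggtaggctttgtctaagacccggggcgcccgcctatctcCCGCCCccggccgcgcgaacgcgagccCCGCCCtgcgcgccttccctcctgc
Tuba1b: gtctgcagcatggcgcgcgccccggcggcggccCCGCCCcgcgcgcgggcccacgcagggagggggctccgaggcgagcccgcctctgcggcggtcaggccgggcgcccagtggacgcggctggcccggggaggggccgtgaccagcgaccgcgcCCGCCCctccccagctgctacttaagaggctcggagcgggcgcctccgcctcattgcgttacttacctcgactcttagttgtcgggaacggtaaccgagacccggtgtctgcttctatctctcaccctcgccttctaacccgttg
Tuba1c: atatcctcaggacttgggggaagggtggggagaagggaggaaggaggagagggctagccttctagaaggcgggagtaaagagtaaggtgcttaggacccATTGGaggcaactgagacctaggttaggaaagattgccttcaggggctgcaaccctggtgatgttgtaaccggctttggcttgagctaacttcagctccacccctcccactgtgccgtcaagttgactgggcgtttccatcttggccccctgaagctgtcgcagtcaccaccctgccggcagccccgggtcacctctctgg
The GC box was present in 7 of the 8 windows, against 35.7% of all 32851 windows of this length, and was absent from that of Tuba1c. The CCAAT box was present in 5 of the 8, against 37.4% of all, with 5 copies in Tubb2c, 2 in Tubb5 and 1 in Tuba1c. The TATA box was present in 2 of the 8 (Tubb2a and Tubb2c), against 13.6% of all, and the cyclic AMP response element in 1, that of Tubb2a, against 1.79%. The amino acid response element, through which ATF4 acts on many starvation-induced genes, was present in 0 of the 8 and in 3.97% of all windows. These matches describe letters in a window and are not binding sites.

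In each channel 40.1% to 49.9% of the spots were well above background, and no spot was saturated. The 2 channels of a condition correlated across 15490 probes at 0.997 for RPMI, 0.996 for EBSS and 0.995 for EBSS with SB202190. Levels are given below as log2 normalised intensities, first Cy5 and then Cy3, and can be compared between media for a probe but not between probes. A log2 ratio is the least-squares estimate over the loop of 3 arrays, in which a constant dye effect of a probe cancels. Its error is a technical standard error (SE) from how far the loop of arrays failed to close at that intensity, with a median of 0.146 over the 14 tubulin probes well above background in all 6 channels. That error leaves out the spread between cultures, and the 3 arrays limit its precision. Of the macrophage markers on the array, 11 of 11 were measured, and of 33 markers of 8 other cell types 2 were, S100a8 and Tubb3. The macrophage markers had a median log2 ratio of -0.07 in EBSS against RPMI, with 0 counted, and of -0.31 with SB202190 against EBSS, with Cd14 (-1.55) and Fcgr1 (-1.31, another probe -0.84) counted as lower. Over all measured genes 7.3% were counted in EBSS against RPMI, and 2.91% were lower with SB202190 against EBSS. The part of the macrophage markers in the tubulin values was not tested. As whole populations were read, fewer cells of a type and less RNA per cell cannot be told apart.

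The first comparison set EBSS against RPMI, which asks how the tubulin genes stood after 6 h in a salt solution without amino acids. Of the 10 genes, 9 were counted as lower in EBSS and 0 as higher, with a median log2 ratio of -1.28, or 2.44-fold lower, although with median centring in place of loess the sign turned for 5 of these 9. Counted means a log2 ratio of at least 1 in size (2-fold), where the array that compares the conditions directly and the indirect path over the other 2 arrays have the same sign and at least 0.5 each. A gene was measured where, in 1 or both of the conditions compared, its brightest probe was well above background on each of that condition's arrays. Over all 11870 measured genes, 7.3% were counted, that is 2.83% as lower and 4.47% as higher, and the median was 0.0. Among the brightest 10% of measured genes, where 7 of the 10 tubulins lie, 3.37% were lower and 5.73% higher, and the median was -0.13. Since these ratios chose the family, nothing further is read from the difference. Media differ in amino acids, serum and other ingredients, and these cannot be told apart.

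**Figure D1:**
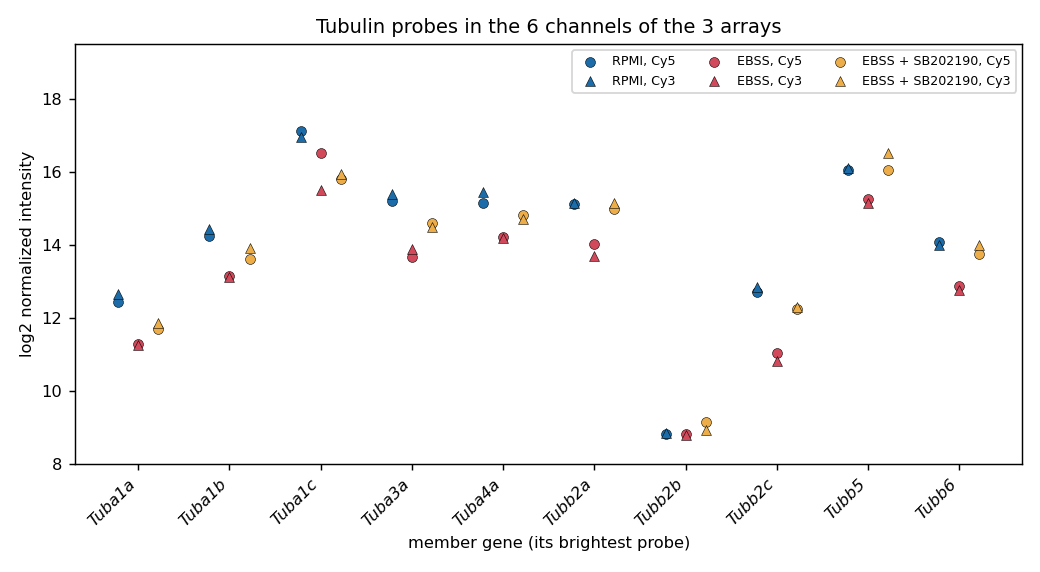
Log2 normalised intensity (vertical axis) of the brightest probe of each tubulin gene (horizontal axis) in RPMI, EBSS and EBSS with SB202190, with circles for Cy5 and triangles for Cy3. Points compare media within a gene and not genes with each other. For Tubb2c the EBSS channels lie at 11.03 and 10.82, below 12.70 and 12.83 in RPMI, while for Tuba1c the EBSS channels lie 16.50 and 15.50, far apart.

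Among the alpha genes, Tuba1b encodes an alpha tubulin made by most cells. Its probe (chr15:98760823-98761014, minus strand, mm8) read 14.23 and 14.42 in RPMI, 13.13 and 13.11 in EBSS, and 13.60 and 13.91 in EBSS with SB202190. The 3 media did not overlap, with RPMI highest and EBSS lowest. EBSS stood at -1.28 ± 0.15 against RPMI, 2.43-fold lower, with -1.12 on the direct array and -1.60 by the indirect path.

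Tuba1a encodes the alpha tubulin best known from developing neurons. Its probe (chr15:98777881-98777896, mm8) read 12.43 and 12.64 in RPMI, 11.28 and 11.26 in EBSS, and 11.70 and 11.86 with SB202190. The order of media was that of Tuba1b, without overlap, and the log2 ratio of EBSS to RPMI was -1.29 ± 0.12.

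Tuba1c, the third gene of the cluster on chromosome 15, encodes another broadly made alpha tubulin. Its probe (chr15:98866083-98866139, plus strand, mm8) read 17.12 and 16.94 in RPMI, 16.50 and 15.50 in EBSS, and 15.80 and 15.95 with SB202190. RPMI did not overlap with the other media, but the EBSS channels lay 1 log2 unit apart and enclosed those with SB202190. The ratio of EBSS to RPMI was -1.27 ± 0.20, with -1.62 on the direct array and -0.58 by the other path. The ratios around the loop, which sum to 0 without error and without a dye effect of the probe, summed to 1.04 for this probe, a size reached by 0.445% of 15490 probes. Error and dye effect cannot be told apart in that sum, and a constant dye effect leaves the estimate as it is.

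Tuba3a encodes an alpha tubulin known chiefly from testis. The brighter of its probes (chr6:125246707-125246766, mm8) read 15.21 and 15.38 in RPMI, 13.66 and 13.88 in EBSS, and 14.58 and 14.49 with SB202190. The media again did not overlap, and EBSS stood at -1.43 ± 0.20 against RPMI. The other probe (chr6:125247184-125247243, mm8) was well above background in 3 of 6 channels and lay between 8.65 and 8.76 in all of them, with a log2 ratio of EBSS to RPMI of -0.04. The probes of this gene disagree. Tubulin genes are near-identical in coding sequence and the probes' sequences were not used here, so which isotype a probe reads is uncertain, for Tuba3a above all.

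Tuba4a encodes the alpha tubulin that is made without the C-terminal tyrosine of the others. Its brightest probe (chr1:75098880-75098939, mm8) read 15.15 and 15.43 in RPMI, 14.21 and 14.18 in EBSS, and 14.82 and 14.70 with SB202190. EBSS stood at -1.01 ± 0.20 against RPMI, just inside the size required. The gene's other probes gave -0.46 ± 0.13 and -0.41 ± 0.12, outside it, so the count of this gene rests on the brightest probe.

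Among the beta genes, Tubb2c (Tubb4b), widely made and abundant in ciliated cells, had the lowest ratio of the family. Its probe (chr2:25044995-25045054, mm8) read 12.70 and 12.83 in RPMI, 11.03 and 10.82 in EBSS, and 12.23 and 12.29 with SB202190. EBSS was lowest without overlap, at -1.87 ± 0.12 against RPMI, 3.66-fold lower. The direct array and the other path both gave -1.87.

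Tubb5 encodes the beta tubulin found in nearly all cells. Its brighter probe (chr17:35442980-35443039, mm8) read 16.05 and 16.09 in RPMI, 15.24 and 15.13 in EBSS, and 16.04 and 16.51 with SB202190. The second (chr17:35443071-35443130, mm8) read 15.72 and 15.40, then 14.85 and 14.49, then 15.70 and 15.85. On both probes EBSS was lowest without overlap and RPMI and SB202190 overlapped. Both probes stood at -1.05 ± 0.20 in EBSS against RPMI, near the size required.

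Tubb2a encodes a beta tubulin prominent in neurons. Its brightest probe (chr13:34082007-34082066, mm8) read 15.11 and 15.15 in RPMI, 14.01 and 13.69 in EBSS, and 14.99 and 15.15 with SB202190. EBSS was lowest without overlap, at -1.38 ± 0.20 against RPMI. The other Tubb2a probes gave -0.60 ± 0.10 and -0.27 ± 0.11, of the same sign and smaller.

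Tubb6 encodes a more divergent beta tubulin. Its probe on chromosome 18 read 14.06 and 13.99 in RPMI, 12.88 and 12.77 in EBSS, and 13.75 and 13.98 with SB202190. EBSS was lowest without overlap, at -1.31 ± 0.15 against RPMI. A second probe, on the opposite strand, was well above background in no channel.

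Tubb2b, the close relative of Tubb2a best known from developing brain, was the member outside the pattern. Its probe (chr13:34134657-34134716, mm8) read 8.82 and 8.84 in RPMI, 8.81 and 8.79 in EBSS, and 9.13 and 8.91 with SB202190. It was well above background on 2 arrays in RPMI, 1 in EBSS and 2 with SB202190. EBSS stood at 0.04 ± 0.07 against RPMI, with paths of opposite sign. With the scanner's own log ratios it stood at -0.29 and with centring on the brightest 10% of probes at -0.94, so it has no settled sign.

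**Figure D2:**
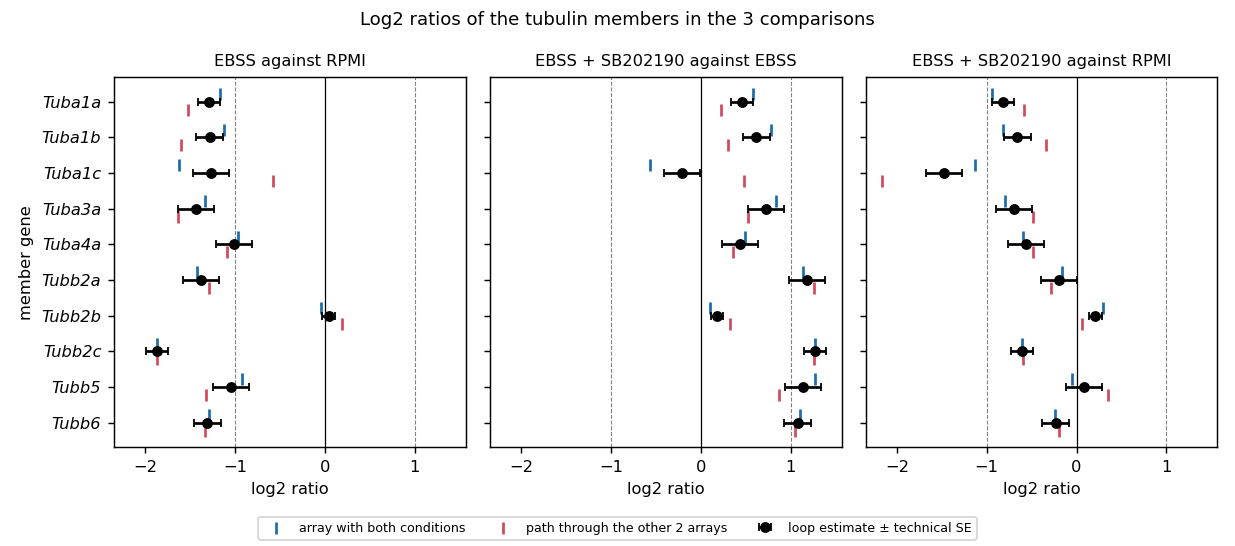
Log2 ratios (horizontal axis) of the tubulin genes (vertical axis) in the 3 comparisons. Points are loop estimates with their technical SE, blue ticks the direct array, red ticks the indirect path, and dashed lines a size of 1. Of the 10 genes, 9 lie below -1 in EBSS against RPMI, and the ticks of Tuba1c lie farthest apart. With median centring in place of loess, the signs turned for 5 of these genes in EBSS against RPMI and for Tuba1a, Tuba1b, Tuba3a and Tuba4a in the comparison of SB202190 with EBSS.

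The second comparison set EBSS with SB202190 against EBSS and asks how the tubulin genes stood when the p38 inhibitor was present in the salt solution. Of the 10 genes, 4 were counted as higher with SB202190 and 0 as lower, with a median log2 ratio of 0.68 (1.6-fold), and with median centring in place of loess 0 were counted. Over all 11689 measured genes, 3.81% passed the same rule, 0.898% being higher and 2.91% lower. Among the brightest 10%, with 6 of the tubulins, 0.684% were higher and 4.19% lower, and the median was 0.13. The EBSS sample is the same in this comparison and the first, so an error in it would enter both with opposite sign. Solvent, other targets of the inhibitor and differences between cultures cannot be told apart from p38 inhibition.

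The 4 genes were all beta tubulins. Tubb2c stood at 1.27 ± 0.12 (2.4-fold), Tubb2a at 1.18 ± 0.20 (2.26-fold), Tubb5 at 1.14 ± 0.20 (2.2-fold) and Tubb6 at 1.08 ± 0.15 (2.12-fold). The second Tubb5 probe gave 1.17 ± 0.20, while the other Tubb2a probes gave 0.11 ± 0.10 and 0.33 ± 0.11. Among the alpha genes, Tuba3a lay at 0.73 ± 0.20, Tuba1b at 0.62 ± 0.15, Tuba1a at 0.46 ± 0.12 and Tuba4a at 0.44 ± 0.20, all short of the size required. With median centring in place of loess these turned sign, to -0.05 for Tuba3a, -0.15 for Tuba1b, -0.18 for Tuba1a and -0.37 for Tuba4a, while the 4 beta genes stayed above 0 at 0.63 for Tubb2c, 0.35 for Tubb2a, 0.23 for Tubb5 and 0.32 for Tubb6. The median was 0.46 over the 5 alpha genes and 1.14 over the 5 beta genes. The difference between alpha and beta was seen in these ratios and was not tested.

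Tuba1c differed in sign from the rest, at -0.21 ± 0.20, with -0.56 on the direct array and 0.48 by the other path, so it has no settled direction. Tubb2b lay at 0.18 ± 0.07 near background, and its value depends on the processing: it was 1.09, and counted as higher, with the scanner's own log ratios and with the authors' series table, and 0.87 with centring on the brightest 10% of probes.

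The third comparison set EBSS with SB202190 against RPMI. In it 1 gene, Tuba1c, was counted as lower and 0 as higher, with a median of -0.58 (1.5-fold lower), against 3.9% of 11860 measured genes counted, 2.42% as lower and 1.48% as higher. Among the brightest 10%, with 7 of the tubulins, 2.45% were lower and 1.43% higher. Without Tuba1c 0 were counted. Tuba1c stood at -1.48 ± 0.20, 2.79-fold lower, with -1.13 on the direct array and -2.17 by the indirect path. That SE is pooled over probes of like intensity, while the loop of this probe summed to 1.04. The other alpha genes lay between -0.82 for Tuba1a and -0.56 for Tuba4a. Of the beta genes, Tubb2c lay at -0.61 ± 0.12, while Tubb2a (-0.20 ± 0.20), Tubb6 (-0.23 ± 0.15) and Tubb5 (0.08 ± 0.20) lay within 2 SE of RPMI. The order of media was therefore RPMI, then SB202190, then EBSS, with both gaps over 2 SE, for Tuba1a, Tuba1b, Tuba3a, Tuba4a and Tubb2c. For Tubb2a, Tubb5 and Tubb6 the RPMI and SB202190 levels did not differ beyond 2 SE and both lay above EBSS. For Tuba1c EBSS and SB202190 did not differ beyond 2 SE and both lay below RPMI. For Tubb2b SB202190 lay above EBSS by more than 2 SE, while EBSS and RPMI did not differ beyond it. These orders are those of the brightest probes. Another Tubb2a probe stood at -0.49 ± 0.10 with SB202190 against RPMI, and at 0.11 against EBSS, within 2 SE. The remaining Tubb2a probe gave 0.06 ± 0.11 and 0.33, as the brightest probe grouped the media. On the other Tuba4a probes SB202190 stood at 0.16 and 0.06 against EBSS, both within 2 SE. Tubb2c and Tubb2b alone kept the order of their 3 levels with median centring in place of loess. With that scaling Tuba4a (0.01), Tubb2a (0.36) and Tubb6 (0.29) turned sign with SB202190 against RPMI, and Tubb2c stood at -0.12, within 2 SE of RPMI.

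**Figure D3:**
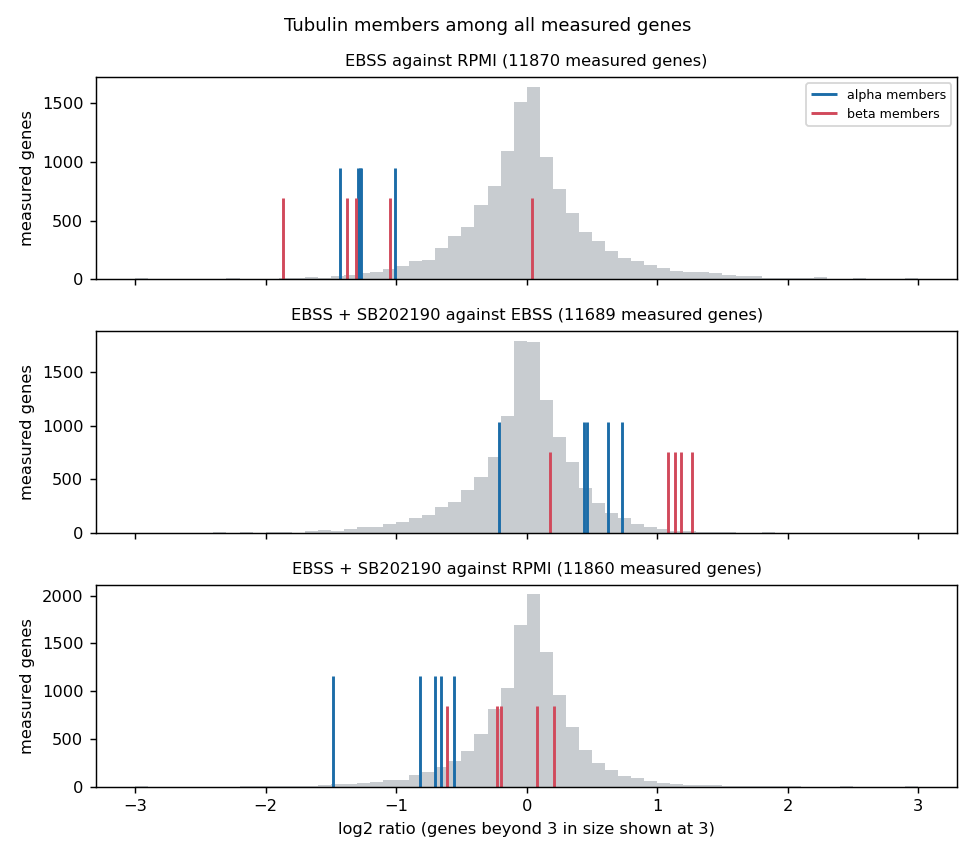
Number of measured genes (vertical axis) by log2 ratio (horizontal axis, in bins, genes beyond 3 in size drawn at 3) in the 3 comparisons, with blue lines at the alpha and red lines at the beta genes. In EBSS against RPMI the lines lie between -1.87 for Tubb2c and -1.01 for Tuba4a, except Tubb2b at 0.04. The median of the tubulin genes is -1.28, and with median centring in place of loess it was 0.01, against 0.81 over all measured genes.

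Ranked from the lowest of 11870 genes in EBSS against RPMI, Tubb2c was at rank 27, Tuba3a at 96, Tubb2a at 113, Tubb6 at 139, Tuba1a at 147, Tuba1b at 150, Tuba1c at 158, Tubb5 at 289 and Tuba4a at 335. Tubb2b was at 6638. The 9 genes thus lie near the low end, as their selection on these ratios implies.

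Probes of 3 other tubulin genes were read for comparison. Tubb4 (Tubb4a) read 12.68 and 12.76 in RPMI, 11.65 and 11.90 in EBSS and 12.93 and 12.58 with SB202190, and its ratios of -0.77 ± 0.13 and then 0.93 fell short of the size required. Tubb3, the neuronal beta tubulin, lay between 8.87 and 9.01 in all channels, with ratios of 0.01 and 0.01, and Tuba8 was well above background nowhere.

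The genes whose ratios lay nearest to the brightest alpha probe, Tuba1c, by distance over the first 2 ratios among 10765 genes well above background in all 6 channels, were Spata13 (distance 0.028, with ratios of -1.27 and -0.18), Arhgef39, Ppan, Ebna1bp2 and Plekhg3. In all, 38 genes lay within 0.25 of Tuba1c. As the second of its ratios has no settled direction, it was also turned in sign, an alternative chosen after seeing the data. Then 66 genes lay within 0.25, 5 of them among the 38, and 0 of the 5 nearest were the same. Nearest to Tubb5, the brightest beta gene, were, among others, Fanca (distance 0.073, with ratios of -1.05 and 1.06), Ndufaf7, Gtpbp3 and Acaa1a, with 31 genes within 0.25. Likeness over 3 conditions is a description of these arrays.

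Genes whose products fold, modify, sever or bind tubulin were read beside the family. Over 8 lists of microtubule genes with 96 measured in all, 5 genes were counted as lower and 2 as higher in EBSS against RPMI. Over all measured genes 2.83% were lower and 4.47% higher, so nothing is read from these counts. The list medians lay between -0.1 and 0.09. With SB202190 against EBSS 0 of the 96 were counted as higher and 1 as lower, against 0.898% and 2.91% of all measured genes. The list medians lay between -0.07 and 0.12. In the list of tubulin autoregulation, with Ttc5 (-0.41 in EBSS), Scaper (0.5) and CCR4-NOT subunits, 0 of 8 were counted. Ttc5 and Scaper are named for the role given above and not by the rule for named genes. Cnot1, the scaffold of the deadenylase, lay at 0.72 and Cnot2 at 0.63. Of 11 genes for gamma, delta and epsilon tubulin and the gamma-tubulin ring complex 0 were counted, Tubg1, the main gamma tubulin, lying at -0.78 in EBSS against RPMI and at 0.9 with SB202190 against EBSS, and Mzt1, a small subunit of the ring complex, at 0.76 in EBSS against RPMI.

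Of 7 folding cofactors, which assemble the dimer, Tbcc was counted as lower at -2.21 ± 0.12 and stood at 0.26 with SB202190 against EBSS, and Tbcel, which destabilises tubulin, was counted as higher at 1.37 ± 0.12, with other probes at 0.79 and 0.19. Of 16 chaperonin and prefoldin genes, Pfdn6 was lower at -1.16. Of 13 tubulin-modifying enzymes and their partners, Svbp, the small partner of the vasohibins that remove the terminal tyrosine, was lower at -1.01, near the size required, and had a ratio of 0.1 with median centring. Of 11 genes of the stathmin and severing list, Fignl1, a severing-type ATPase, was lower at -1.82 and -1.64 on its other probe, and Stmn4 higher at 1.4. Of 18 microtubule-associated and plus-end proteins, Tacc3, a spindle protein, was lower at -1.05 in EBSS, and Prc1, which bundles midzone microtubules, was lower at -1.29 with SB202190 against EBSS. Of 12 dynein and kinesin-1 genes 0 were counted, Dync1li1, a dynein light intermediate chain, lying at 0.85 and Dynll1, a dynein light chain, at -0.7. With SB202190 against RPMI, Tbcc (-1.95), Pfdn6 (-1.14), Fignl1 (-1.86), Prc1 (-1.27) and the spindle factor Tpx2 (-1.11) were counted as lower, against 2.42% of all measured genes. With median centring in place of loess, Pfdn6 (0.0), Tacc3 (-0.11) and Fignl1 (-0.9) also fell short of the size required in EBSS against RPMI, as did Pfdn6 (-0.66), Prc1 (-0.8) and Tpx2 (-0.65) with SB202190 against RPMI. Tbcc (-1.06), Tbcel (2.49) and Stmn4 (2.21) stayed beyond a size of 1 in EBSS against RPMI, although Stmn4 stood at 0.98 with centring on the brightest 10% of probes.

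**Figure D4:**
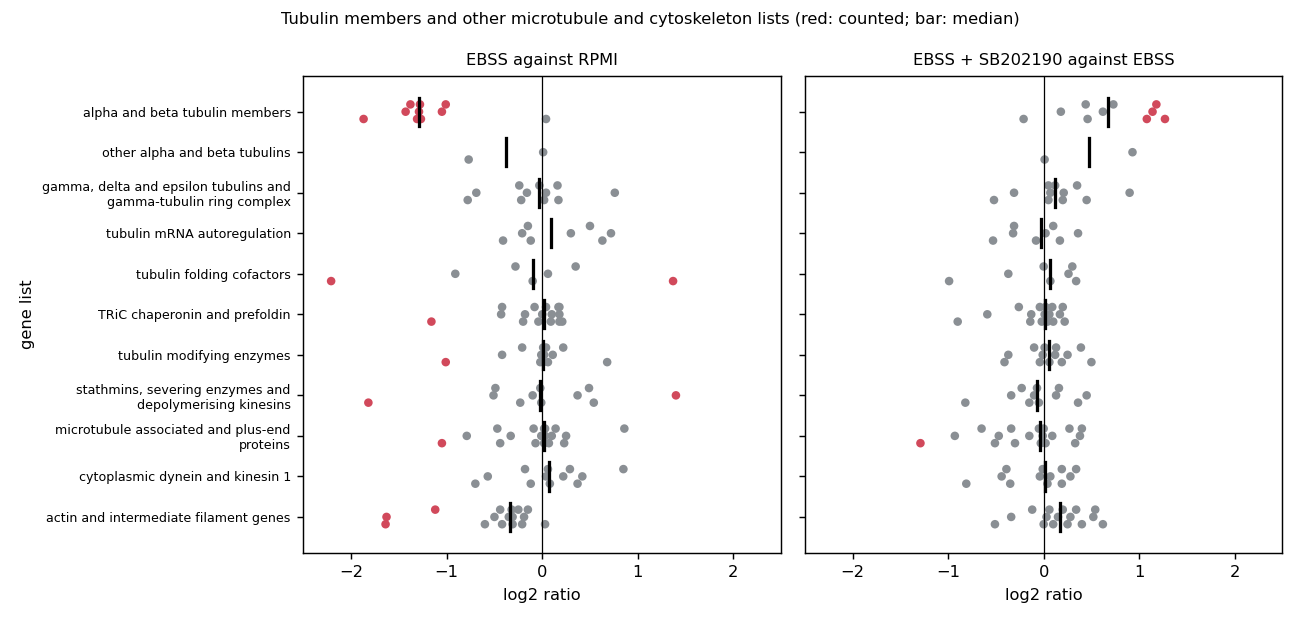
Log2 ratios (horizontal axis) of the measured genes of each list (vertical axis), the tubulin genes among them, in EBSS against RPMI and in EBSS with SB202190 against EBSS. Dots are genes, red where counted, and bars list medians, which for the 8 lists of partners lie between -0.1 and 0.09 in EBSS against RPMI.

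For 16 actin and intermediate filament genes the median was -0.34 in EBSS against RPMI, with 3 lower and 0 higher, against 2.83% lower among all measured genes. These were Tmsb4x, which binds actin monomers (-1.64), and the lamin genes Lmna (-1.63, other probes -1.73 and -1.77) and Lmnb1 (-1.12). With SB202190 against EBSS 0 of them were counted, Tmsb4x lying at 0.62, Lmna at 0.54 and Lmnb1 at -0.34. With SB202190 against RPMI the same 3 were counted as lower, Tmsb4x at -1.02, Lmna at -1.1 and Lmnb1 at -1.46, with a list median of -0.28 and 2.42% lower among all measured genes. None of the 3, with median centring in place of loess, reached the size required in EBSS against RPMI (Tmsb4x -0.15, Lmna -0.16, Lmnb1 -0.21), and against RPMI with SB202190 Tmsb4x (-0.43) and Lmna (-0.5) did not, while Lmnb1 stood at -1.02. With centring on the brightest 10% of probes, Tmsb4x (-0.91) and Lmna (-0.98) also fell short with SB202190 against RPMI.

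Scaling bears on the size of every value. With median centring in place of loess, all measured genes had a median of 0.81 in EBSS against RPMI and the tubulins 0.01, so that the tubulins lay 0.81 below that median, and 10 of 10 lay below it. Under median centring the shares of genes counted higher and lower were 35.8% and 0.194%, under the scanner's own ratios 8.1% and 9.22%, and under centring on the brightest 10% of probes 3.34% and 15.6%. For SB202190 against EBSS these were 0.154% and 6.58%, then 6.69% and 6.6%, then 2.41% and 2.52%, and the tubulins lay 0.49 above the median of all genes with median centring, with 9 of 10 above it. For EBSS with SB202190 against RPMI they were 1.28% and 0.759%, then 4.0% and 6.53%, then 1.05% and 2.14%.

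**Figure D5:**
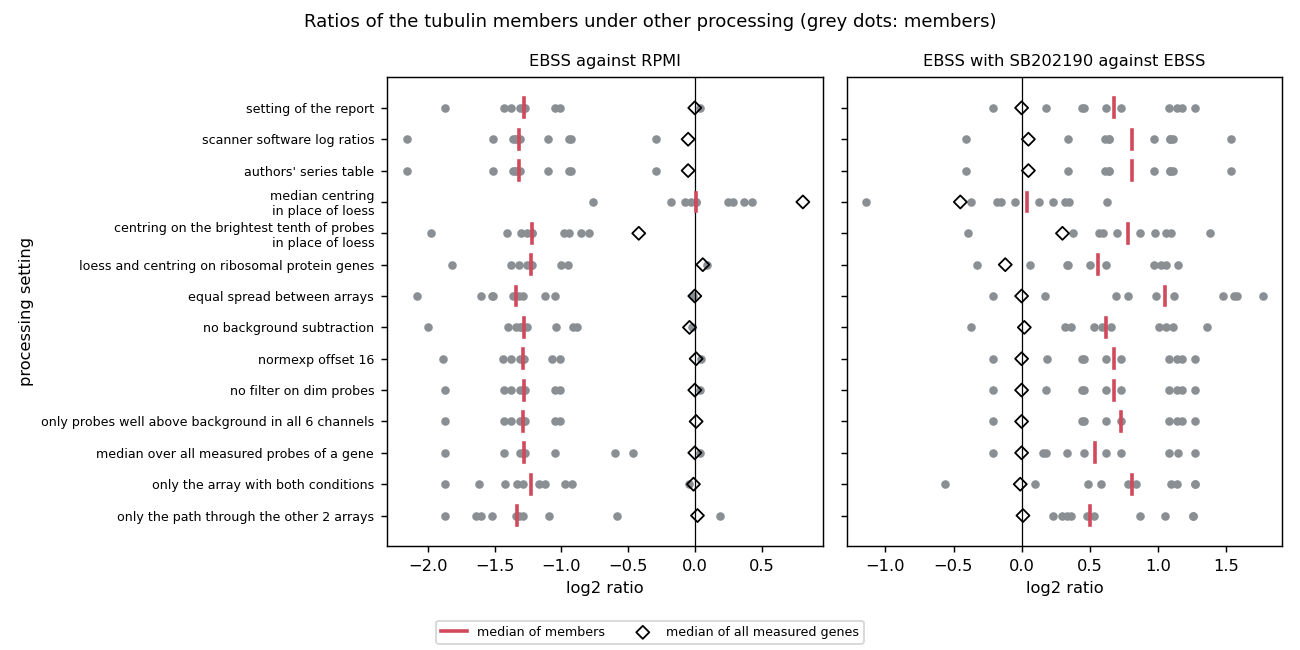
Log2 ratios (horizontal axis) of the tubulin genes (grey dots) under each processing setting (vertical axis), with their median (red bar) and the median of all measured genes (diamond). In EBSS against RPMI the red bar lies at -1.28 as reported and at 0.01 with median centring, where the diamond lies at 0.81.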

How the data were processed

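The deposited files hold, per the file headers, mean spot and background median intensities in both dyes without normalization, read with Agilent Feature Extraction 9.5.3.1 (submitters' processing notes), and processed intensities with a log10 ratio of Cy5 over Cy3. Deposited marks of other kinds flag controls, outliers, saturation and signal well above background. The authors' series table of log2 ratios, with medians of -0.0854, -0.0766 and -0.166, was set against the scanner log ratios. It follows the scanner's own log ratio of Cy5 over Cy3, on the log2 scale and without further centring (correlation 0.987 to 0.997). It does not hold unnormalised ratios: after background correction alone, the medians of the 3 arrays were 1.69, -0.878 and -0.726.

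From the mean intensities, background was corrected with normexp (offset 50) and arrays normalized by loess in limma 3.58.1 (R 4.3.3), without weight for control spots (1639 of 45018). Controls and outliers (136 to 178 spots per array) were dropped and spots of a probe averaged. Levels used Aquantile scaling. Further steps used Python 3.11.15, numpy 2.4.6, pandas 2.3.3 and matplotlib 3.10.9. The loop estimate, the counting rule and the technical SE were tried on simulated data, with noise sized from these arrays' loop sums. Normalization, gene naming, lists, nearest genes and motif matches were not part of that simulation. A gene was represented by its brightest probe. Of 41174 probes, 24375 were named by accession, 6301 by symbol and 2426 by synonym through RefSeq (GRCm38.p6), and 8072 kept the file's name. Probe positions are on mm8, and exons were not analysed. The technical SE is a robust SD of the loop sum in 30 intensity bins, scaled down to the error of a least-squares ratio. It includes a probe's dye effect.

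Array 1 held RPMI (Cy5) and EBSS (Cy3), array 2 EBSS and EBSS with SB202190, array 3 EBSS with SB202190 and RPMI. Groups follow the source names, since the design text is ambiguous on RPMI. Shared extracts between channels and a solvent control are not given in the sources used here. The members and lists were chosen with earlier results of these data known. Named were all members, the 5 genes nearest to the brightest alpha and to the brightest beta gene, and of each list the counted genes and otherwise the 2 with the largest ratio. A gene that this rule names is not reported here. 14 alternatives were tried, 1 of them (without Tuba1c) chosen after seeing the data, as was the turned sign for the neighbours of Tuba1c.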

Additional observations from a re-analysis of the deposited data

How the results depend on the processing

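With median centring in place of loess, the tubulin median was 0.01 in EBSS against RPMI, 0.04 with SB202190 against EBSS and -0.06 with SB202190 against RPMI, and 0 genes were counted in each. Its signs in EBSS against RPMI turned for Tuba1b (0.01), Tuba1c (0.25), Tuba4a (0.37), Tubb2a (0.01) and Tubb5 (0.43). The cause was not tested. With equal spread between arrays the median was 1.05 with SB202190 against EBSS and -0.34 against RPMI, and by the indirect path alone -0.41 against RPMI. Without Tuba1c 0 genes were counted in SB202190 against RPMI. Under the alternatives other than median centring, 6 to 9 genes were counted as lower in EBSS against RPMI and 3 to 5 as higher with SB202190 against EBSS. Of the medians and counts under the alternatives, 74 values stayed the same, 5 moved, 4 lost the count and 1 reversed, and of the ratios of single genes 311 stayed within their SE, 98 moved further and 5 that had been counted reversed. With genes that had not been counted, 21 ratios changed sign in all. Tuba4a was counted as lower in EBSS under 6 of 14 alternatives, Tubb5 under 8 of 14 and Tuba1c under 9 of 13. These tallies include settings that by construction leave a single ratio as reported. They are no filter on dim probes, only probes well above background in all 6 channels, and leaving out Tuba1c. The median over all probes does the same for a gene with a single measured probe. The scanner's own log ratios and the authors' series table gave the same ratios but enter as separate alternatives. No paired analysis was possible because each condition has replicate 1 alone. Signal over background limits Tubb2b and the dim probes of Tuba3a and Tubb6. The number of arrays limits the rest.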
